A study of Mus musculus with 14 samples.

Results

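Collagen cross-linking and processing enzymes are described here in mouse liver that had received an interleukin 13 (IL-13) plasmid or a control plasmid. The 10 genes were chosen by symbol, and every probe that carried one of the symbols was taken. They were Serpinh1, P4ha1, P4ha2, Plod1, Plod2, Plod3, Pcolce, Lox, Loxl1 and Loxl2. Each had 1 probe, so they made up 10 of the 25697 probes and 10 of the 16593 named genes of the array. All 10 probes were detected (detection p under 0.05) on at least 3 arrays and were kept, among 14109 kept probes. Lox passed this filter through IL-13 arrays alone, as did Loxl2, so a higher level with IL-13 was built into the selection of both.

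Whole-liver RNA was measured on 14 Illumina BeadChips, 1 per sample, at 1 week after hydrodynamic delivery of a mammalian expression plasmid, a rapid large-volume injection that brings DNA into hepatocytes. The groups were Alb-Cre liver with IL-13 (n = 3), wild-type liver with IL-13 (n = 3), Alb-Cre liver with the green fluorescent protein EGFP (n = 4) and wild-type liver with EGFP (n = 4). The series title places Alb-Cre on a floxed Il4ra allele, so that the albumin promoter would delete a chain of the IL-13 receptor in hepatocytes and leave other liver cells intact. The labels do not say whether the wild-type mice carried the floxed allele, nor do they give strain, age or sex, and the deletion itself was not analysed here.

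The arrays were alike in depth, with 11554 to 13261 probes detected (45.0 to 51.6%) and a correlation of 0.978 to 0.993 between arrays of a group. Sex-linked transcripts did not follow the groups evenly. Xist was detected on 10 arrays, and the Y-linked Eif2s3y on the other 4, namely all 3 Alb-Cre IL-13 arrays and wild-type IL-13 replicate 3. In Alb-Cre liver the plasmid and this pattern therefore cannot be told apart. The difference of responses between the genotypes contains the Alb-Cre change and shares this limit. The comparison of Alb-Cre with wild type under IL-13 held 1 wild-type array with the same pattern. Values with the pattern as a covariate are given for all 10 genes in Alb-Cre, and elsewhere where they change a call. The labels do not state that samples came from separate animals, and p-values therefore cover the variation among the arrays, which may be technical.

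Fibrillar collagen is assembled in a fixed series of steps. In the endoplasmic reticulum, prolyl 4-hydroxylases stabilise the triple helix, lysyl hydroxylases prepare lysines for cross-links and the chaperone HSP47 holds the folded procollagen. Outside the cell the propeptides are cut off, and lysyl oxidases then join the fibrils by covalent cross-links, which make a fibrotic matrix stiff and hard to degrade. In injured liver, hepatic stellate cells and myofibroblasts are known as the main source of this matrix, while hepatocytes also express several of the hydroxylases.

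The RefSeq promoter windows of assembly GRCm38.p6, which run from 250 bases before to 50 bases after a gene's start, were on hand for 6 of the 10 genes. The 3 printed here belong to genes whose level differed between the genotypes under IL-13. Capitals mark 1 form of the core of a hypoxia response element (ACGTG or its reverse complement CACGT) and the GC box (GGGCGG or CCGCCC). Both were searched on both strands, and no match of the 2 motifs overlapped in these windows. Other forms of the hypoxia core, such as GCGTG, were not searched and are not marked.
Serpinh1 promoter, chr7:99353190-99353489, minus strand: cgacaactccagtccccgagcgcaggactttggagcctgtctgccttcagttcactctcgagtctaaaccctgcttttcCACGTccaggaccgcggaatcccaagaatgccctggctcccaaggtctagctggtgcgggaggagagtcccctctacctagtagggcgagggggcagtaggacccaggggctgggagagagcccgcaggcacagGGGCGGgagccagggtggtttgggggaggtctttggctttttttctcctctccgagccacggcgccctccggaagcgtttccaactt
Pcolce promoter, chr5:137611355-137611654, minus strand: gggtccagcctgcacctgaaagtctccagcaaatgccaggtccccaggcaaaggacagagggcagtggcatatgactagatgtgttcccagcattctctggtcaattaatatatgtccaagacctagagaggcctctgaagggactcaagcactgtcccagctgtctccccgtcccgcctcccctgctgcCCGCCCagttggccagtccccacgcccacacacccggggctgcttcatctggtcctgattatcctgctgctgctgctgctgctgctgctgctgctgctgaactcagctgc
P4ha1 promoter, chr10:59323046-59323345, plus strand: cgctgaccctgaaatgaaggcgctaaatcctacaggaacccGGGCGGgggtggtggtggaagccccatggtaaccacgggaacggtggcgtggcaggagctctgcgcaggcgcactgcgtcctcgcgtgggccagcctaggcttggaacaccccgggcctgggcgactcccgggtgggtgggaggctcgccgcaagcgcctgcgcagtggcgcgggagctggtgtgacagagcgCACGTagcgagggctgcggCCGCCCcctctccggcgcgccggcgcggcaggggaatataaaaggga
Relative to the start, the first base of the marked hypoxia core stood at -171 in Serpinh1 and at -16 in P4ha1. The Pcolce window held no match to ACGTG or CACGT. This form of the core was in 4 of the 6 windows, against 19.6% of 32851 windows of the same length. The GC box was in 5 of 6, against 35.7%. A pair of heat shock half-sites was in 1 of the 6 windows as GAANNTTC (Plod1), against 7.86% of all windows, and in 1 as TTCNNGAA (P4ha2), against 8.52%, and so in none of the 3 shown. The palindrome bound by STAT6, the factor that IL-13 activates, was in 0 of the 6 and in 6.95% of all. These matches describe letters in a window, not binding.

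Serpinh1, which encodes the collagen chaperone HSP47, had the largest genotype difference under IL-13 of the 10 genes. Its normalized log2 level was 7.74, 7.72 and 7.28 in Alb-Cre liver with IL-13 and 5.99, 6.49 and 6.26 in wild-type liver with IL-13. With EGFP it was 5.07, 4.92, 4.93 and 4.65 in Alb-Cre and 5.25, 5.11, 5.13 and 5.02 in wild type. The probe was detected on every array, but the lowest detected signal on the Alb-Cre EGFP arrays was 4.51 to 4.60. The size of the Alb-Cre rise is therefore uncertain. The 3 Alb-Cre IL-13 arrays lay above the 3 wild-type ones, and both sets lay above all EGFP arrays. Serpinh1 rose with IL-13 in Alb-Cre by 2.69 ± 0.14 (log2 change ± standard error of the limma model, 6.44-fold, adjusted p = 2.22e-09) and in wild type by 1.12 ± 0.14 (2.18-fold, adjusted p = 1.29e-05). The response was larger in Alb-Cre by 1.56 ± 0.20 (95% interval 1.13 to 2.00, adjusted p = 1.27e-04), and the level under IL-13 was 2.51-fold higher in Alb-Cre than in wild type (adjusted p = 2.00e-05). On the 4 arrays with Eif2s3y the genotype difference under IL-13 was 1.32 (adjusted p = 0.0409), and with the sex-linked pattern as a covariate the difference of responses was 1.55 (adjusted p = 0.00183). In the authors' deposited log2 table, which has no background correction, that difference was 0.86 (adjusted p = 5.61e-04).

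P4ha1, the catalytic subunit of the main prolyl 4-hydroxylase, moved in the opposite direction in wild type. Its log2 level was 5.53, 5.82 and 5.93 in Alb-Cre liver with IL-13 and 5.36, 4.39 and 4.47 in wild-type liver with IL-13. With EGFP the levels were 5.59, 5.59, 5.59 and 5.85 in Alb-Cre and 6.31, 6.18, 5.84 and 5.66 in wild type. All 3 wild-type IL-13 arrays were below the 4 wild-type EGFP arrays, and the probe was detected on 1 of those 3, replicate 1. The size of the fall is therefore uncertain, as is that of the genotype difference under IL-13. The log2 change with IL-13 was 0.11 ± 0.21 in Alb-Cre (adjusted p = 0.793) and -1.26 ± 0.21 in wild type (adjusted p = 1.55e-04). The responses differed by 1.37 ± 0.29 (95% interval 0.74 to 1.99, adjusted p = 0.00643), and under IL-13 the level was 2.03-fold higher in Alb-Cre than in wild type (adjusted p = 0.00380). The genotype difference under IL-13 was 1.30 on the arrays with Eif2s3y. The 1 wild-type array there, replicate 3, did not detect the probe, so this value rests on 1 undetected reading. With the slide 1 arrays alone the genotype difference under IL-13 was 0.80 (adjusted p = 0.116) and did not pass. The difference of responses did not pass there either (1.46, adjusted p = 0.105), and in the authors' deposited log2 table it was 0.50 (adjusted p = 0.0175).

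P4ha2, the other prolyl 4-hydroxylase catalytic subunit of the set, passed no test. It stood at 5.83, 5.53 and 5.83 in Alb-Cre with IL-13, 5.71, 5.44 and 5.598 in wild type with IL-13, between 5.53 and 6.35 in Alb-Cre with EGFP and between 5.69 and 6.14 in wild type with EGFP. The change with IL-13 was -0.20 ± 0.16 in Alb-Cre (95% interval -0.55 to 0.15) and -0.34 ± 0.16 in wild type (-0.69 to 0.01, adjusted p = 0.120). The arrays overlapped in both genotypes. The difference of responses was 0.14 (95% interval -0.36 to 0.63).

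Plod2 was the lysyl hydroxylase with the largest change. It hydroxylates the telopeptide lysines from which the more stable, pyridinoline type of cross-link is made. Its levels were 5.38, 5.90 and 5.67 in Alb-Cre with IL-13 and 6.04, 6.07 and 5.33 in wild type with IL-13. The EGFP levels were 4.61, 4.64, 4.71 and 5.04 in Alb-Cre and 4.48, 4.86, 4.81 and 5.04 in wild type. These are near background, and the probe was detected on 3 of the 4 wild-type EGFP arrays, so the sizes of the rises are uncertain. Every IL-13 array was above every EGFP array of its genotype. Plod2 rose by 0.90 ± 0.19 in Alb-Cre (1.86-fold, adjusted p = 0.00323) and by 1.02 ± 0.19 in wild type (2.02-fold, adjusted p = 4.34e-04). The difference of responses, -0.12 ± 0.27, did not pass (95% interval -0.68 to 0.45, adjusted p = 0.839). Wild-type IL-13 replicate 3 was the lowest of its group, and without it the wild-type rise was 1.26 (adjusted p = 3.62e-05). With the sex-linked pattern as a covariate the Alb-Cre rise was 1.63 (adjusted p = 0.00245). Within slide 2, which held 1 IL-13 array of each genotype, neither change passed (0.79 in Alb-Cre, adjusted p = 0.0729, and 0.40 in wild type, adjusted p = 0.211).

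Plod1 and Plod3 encode the lysyl hydroxylases of the helical lysines and of galactosyl-hydroxylysine glucosylation. Plod1 stood at 6.56, 6.70 and 6.43 in Alb-Cre with IL-13, 6.80, 6.99 and 6.35 in wild type with IL-13, 6.08 to 6.53 in Alb-Cre with EGFP and 6.13 to 6.61 in wild type with EGFP. The IL-13 and EGFP arrays overlapped in both genotypes. It rose by 0.43 ± 0.16 in wild type (adjusted p = 0.0442), and the change in Alb-Cre was 0.21 ± 0.16 (adjusted p = 0.426), or 0.76 (adjusted p = 0.0878) with the sex-linked pattern as a covariate. The wild-type call was lost in 9 of 14 repeats that each left out 1 array, where the value lay between 0.29 and 0.61. Without wild-type IL-13 replicate 2 it was 0.29 (adjusted p = 0.222). It held without Alb-Cre IL-13 replicate 2, wild-type IL-13 replicate 3, Alb-Cre EGFP replicates 2 or 3, or wild-type EGFP replicate 1.

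Plod3 stood at 9.25, 9.31 and 9.24 in Alb-Cre with IL-13, 9.04, 8.96 and 9.40 in wild type with IL-13, 8.56 to 8.93 in Alb-Cre with EGFP and 8.75 to 9.08 in wild type with EGFP. The Alb-Cre arrays did not overlap between the plasmids, and the wild-type arrays did. It rose in Alb-Cre by 0.49 ± 0.13 (1.40-fold, adjusted p = 0.0136), and the wild-type change was 0.24 ± 0.13 (adjusted p = 0.157). Wild-type IL-13 replicate 3, with Eif2s3y, was 0.40 above the mean of replicates 1 and 2. With the sex-linked pattern as a covariate the Alb-Cre change was 0.09 (adjusted p = 0.848), and without Alb-Cre IL-13 replicate 2 it was 0.47 (adjusted p = 0.0528). It was 0.47 within slide 1 (adjusted p = 0.0717) and 0.49 within slide 2 (adjusted p = 0.264).

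Pcolce encodes the procollagen C-endopeptidase enhancer, a secreted protein that speeds removal of the C-propeptide by BMP1. It stood at 8.17, 7.96 and 7.87 in Alb-Cre with IL-13 and 7.04, 7.51 and 7.50 in wild type with IL-13. With EGFP it stood at 5.97, 5.70, 5.61 and 5.83 in Alb-Cre and 5.83, 5.49, 6.29 and 5.83 in wild type. The order of the groups was that of Serpinh1, with no overlap between Alb-Cre and wild type under IL-13. Pcolce rose by 2.22 ± 0.17 in Alb-Cre (4.66-fold, adjusted p = 1.12e-07) and by 1.49 ± 0.17 in wild type (2.82-fold, adjusted p = 3.47e-06). Under IL-13 it was 1.56-fold higher in Alb-Cre than in wild type (adjusted p = 0.0188), and this call was lost on slide 1 (0.78, adjusted p = 0.0512), on slide 2 (0.37, adjusted p = 0.461) and on the arrays with Eif2s3y (0.50, adjusted p = 0.190), as it was with the sex-linked pattern as a covariate (0.50, adjusted p = 0.240). It was lost also without Alb-Cre IL-13 replicate 1 (0.56, adjusted p = 0.0724) and without wild-type IL-13 replicate 1 (0.49, adjusted p = 0.0854). The difference of responses, 0.72 ± 0.24, did not pass (adjusted p = 0.0616), but it did in the authors' deposited log2 table (0.54, adjusted p = 0.0132) and without wild-type EGFP replicate 2 (0.85, adjusted p = 0.0259).

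Lox, the lysyl oxidase that starts covalent cross-linking of collagen and elastin, had the largest response of the 10 genes. Its log2 level was 8.14, 8.23 and 7.72 in Alb-Cre with IL-13 and 7.996, 8.57 and 8.10 in wild type with IL-13. With EGFP it read 4.19, 4.22, 4.51 and 4.15 in Alb-Cre and 4.21, 4.22, 4.26 and 4.26 in wild type, and it was not detected on any of the 8 EGFP arrays. The rise was therefore at least 11.1-fold in Alb-Cre and at least 13.1-fold in wild type. This sets the mean of the IL-13 arrays against the higher of the probe's own signal and the lowest detected signal on each EGFP array. A higher level with IL-13 was built into the selection of Lox, so its calls in both genotypes are no separate support for a rise. Under IL-13 the genotypes overlapped, with a difference of -0.19 ± 0.16 (95% interval -0.53 to 0.14, adjusted p = 0.463).

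Loxl1, the paralogue known for its role in elastic fibres, was detected on all 14 arrays. Its levels were 9.01, 8.01 and 8.48 in Alb-Cre with IL-13 and 7.29, 7.72 and 7.59 in wild type with IL-13. With EGFP they were 5.73, 5.71, 5.86 and 5.26 in Alb-Cre and 5.74, 5.43, 5.50 and 5.69 in wild type. The Alb-Cre IL-13 arrays lay above the wild-type ones without overlap, and both above EGFP. Loxl1 rose by 2.86 ± 0.20 in Alb-Cre (7.24-fold, adjusted p = 3.41e-08) and by 1.94 ± 0.20 in wild type (3.84-fold, adjusted p = 1.12e-06). Under IL-13 it was 1.96-fold higher in Alb-Cre than in wild type (adjusted p = 0.00389), a call lost with the sex-linked pattern as a covariate (0.91, adjusted p = 0.0645) and within slide 1 (1.00, adjusted p = 0.0780) and slide 2 (0.89, adjusted p = 0.109). The responses differed by 0.91 ± 0.28 (adjusted p = 0.0437), and this call was lost in 11 of 14 repeats without 1 array (values 0.66 to 1.16). It held without Alb-Cre IL-13 replicate 2, wild-type IL-13 replicate 2 or Alb-Cre EGFP replicate 3. It was lost with the sex-linked pattern as a covariate (0.86, adjusted p = 0.159) and with the slide or the replicate number as a block (adjusted p = 0.0507 and 0.0590).

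Loxl2, a paralogue that also acts on basement membrane collagen, stayed near the detection limit. It was 4.56, 4.59 and 4.60 in Alb-Cre with IL-13, 4.28, 4.47 and 4.62 in wild type with IL-13, 4.19 to 4.45 in Alb-Cre with EGFP and 4.27 to 4.41 in wild type with EGFP. The probe was detected on 3 of 3 Alb-Cre IL-13 arrays, 2 of 3 wild-type IL-13 arrays and 0 of the 8 EGFP arrays. No change passed in either genotype (adjusted p = 0.115 in Alb-Cre and 0.530 in wild type), and a difference was not detectable at this signal.

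**Figure D1:**
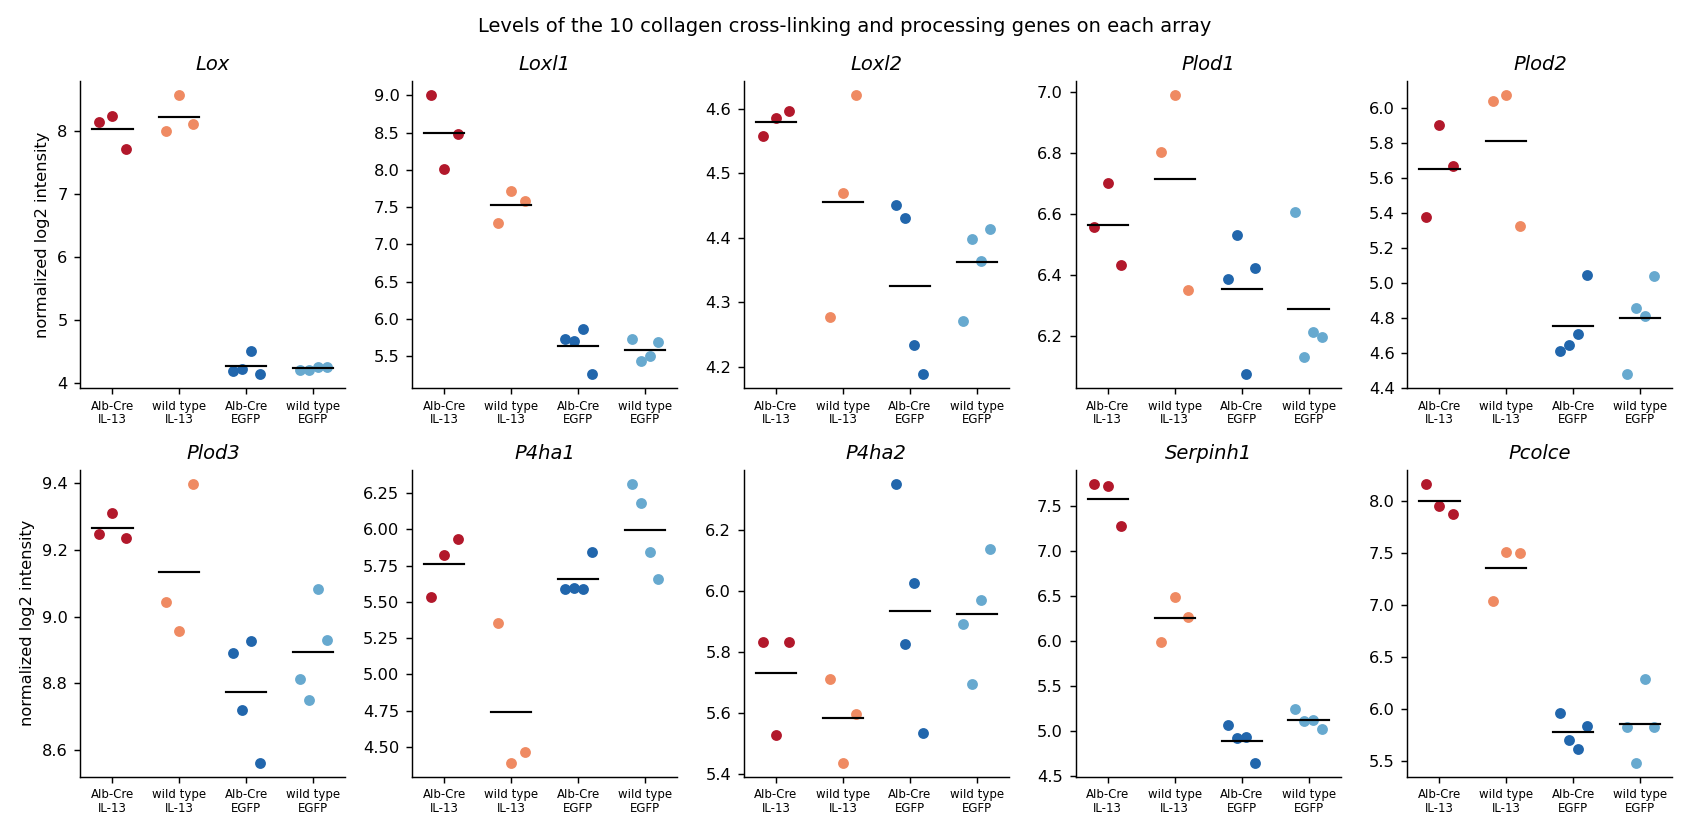
Normalized log2 intensity of the 10 genes on each of the 14 arrays, by group, with points for arrays and bars for group means; each panel has its own scale, which does not start at 0. Serpinh1, Pcolce and Loxl1 step down in the order Alb-Cre IL-13, wild-type IL-13, EGFP, while Lox is alike in both genotypes and P4ha1 is lowest in wild-type IL-13.

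Of the 10 genes, 6 rose with IL-13 in Alb-Cre and 6 in wild type. In Alb-Cre these were Serpinh1, Plod2, Plod3, Pcolce, Lox and Loxl1 and none fell, where 17.4% of the 14109 kept probes were called (9.38% rose and 7.99% fell). In wild type Serpinh1, Plod1, Plod2, Pcolce, Lox and Loxl1 rose and P4ha1 fell, where 38.1% of probes were called (19.2% rose and 18.9% fell). The arrays of the 2 plasmids did not overlap for 7 genes in Alb-Cre, all higher with IL-13, where 27.4% of probes did not overlap (13.4% higher and 14% lower); Lox and Loxl2, which the filter let through by IL-13 arrays alone, are among the 7. In wild type they did not overlap for 5 higher genes and 1 lower gene, against 41.2% of probes (20.5% higher and 20.7% lower). Lox is also among these 5 and among the 6 genes that rose in each genotype, so the filter bears on those counts as well. With the sex-linked pattern as a covariate the Alb-Cre change of Serpinh1 was 2.66 (adjusted p = 2.19e-05) and that of Pcolce 1.99 (adjusted p = 0.00112). Loxl1 had 2.77 with this covariate (adjusted p = 3.03e-04) and Lox 3.94 on the fitted scale. P4ha1 (0.51, adjusted p = 0.467), P4ha2 (-0.22, adjusted p = 0.743) and Loxl2 (0.01, adjusted p = 0.992) did not pass with it, and Plod1, Plod2 and Plod3 are given above. The median log2 change of the 10 was 0.69 in Alb-Cre and 0.72 in wild type, and that of all kept probes was -0.04 and -0.01.

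**Figure D2:**
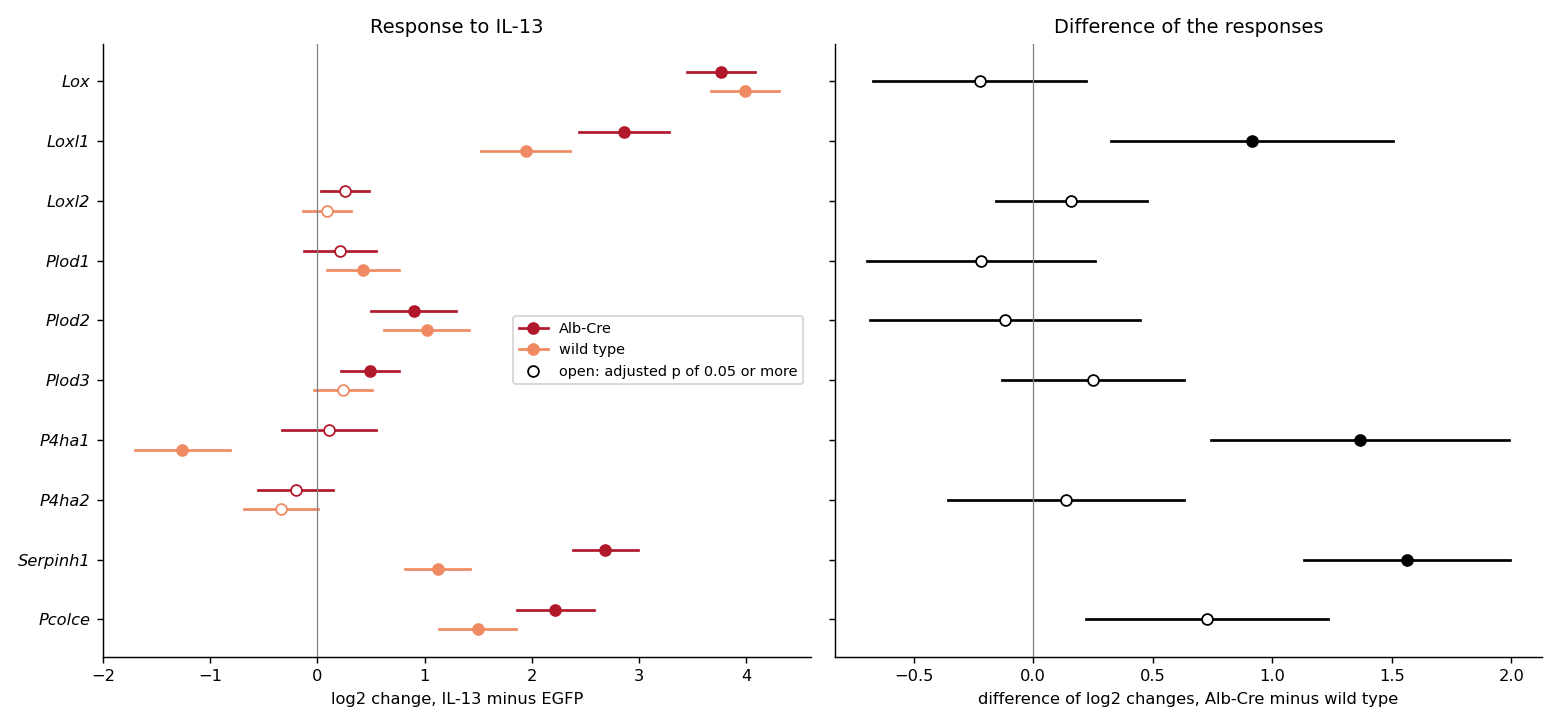
Left, log2 change with IL-13 over EGFP in Alb-Cre (upper point of each pair) and wild type (lower point); right, Alb-Cre minus wild-type difference of these changes; bars are 95% intervals of the limma model and open points did not pass the adjusted threshold of 0.05. The 3 filled points on the right are Loxl1 (0.91), P4ha1 (1.37) and Serpinh1 (1.56).

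The genotypes differed in 3 of the 10 responses, all with the higher value in Alb-Cre. Of all kept probes 11.6% differed (6% in that direction and 5.64% in the other). These differences contain the Alb-Cre change with IL-13, which cannot be told apart from the sex-linked pattern. With that pattern as a covariate they were 1.55 for Serpinh1, 1.64 for P4ha1 and 0.86 for Loxl1, and the Loxl1 call was lost. Wild-type IL-13 replicate 3 against replicates 1 and 2 alone set that term. Under IL-13 itself 4 of 10 genes were higher in Alb-Cre than in wild type, namely Serpinh1, P4ha1, Loxl1 and Pcolce, and 0 were lower, against 19.5% of probes (9.63% higher and 9.85% lower). The 4 genes were also those whose Alb-Cre and wild-type arrays did not overlap, as for 31.3% of probes (15% higher and 16.3% lower). On the arrays with Eif2s3y alone the difference was 1.32 for Serpinh1, 1.30 for P4ha1, 0.91 for Loxl1 and 0.50 for Pcolce. The fit with the sex-linked pattern as a covariate gave the same 4 values. Both set Alb-Cre against wild-type IL-13 replicate 3 alone, so they are 1 check and not 2. In the covariate fit Serpinh1 and P4ha1 passed, though P4ha1 was not detected on that replicate. In liver with EGFP, limma called 0 of the 10 genes and 0% of all probes between Alb-Cre and wild type. At an unadjusted p under 0.05 there were 0 of the 10 and 546 of all probes. The EGFP arrays of the genotypes overlapped for all 10 genes, and did not for 2.7% of probes (1.27% higher and 1.43% lower). The widest EGFP interval of the 4 genes was that of P4ha1, with a difference of -0.34 (95% interval -0.75 to 0.06).

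**Figure D3:**
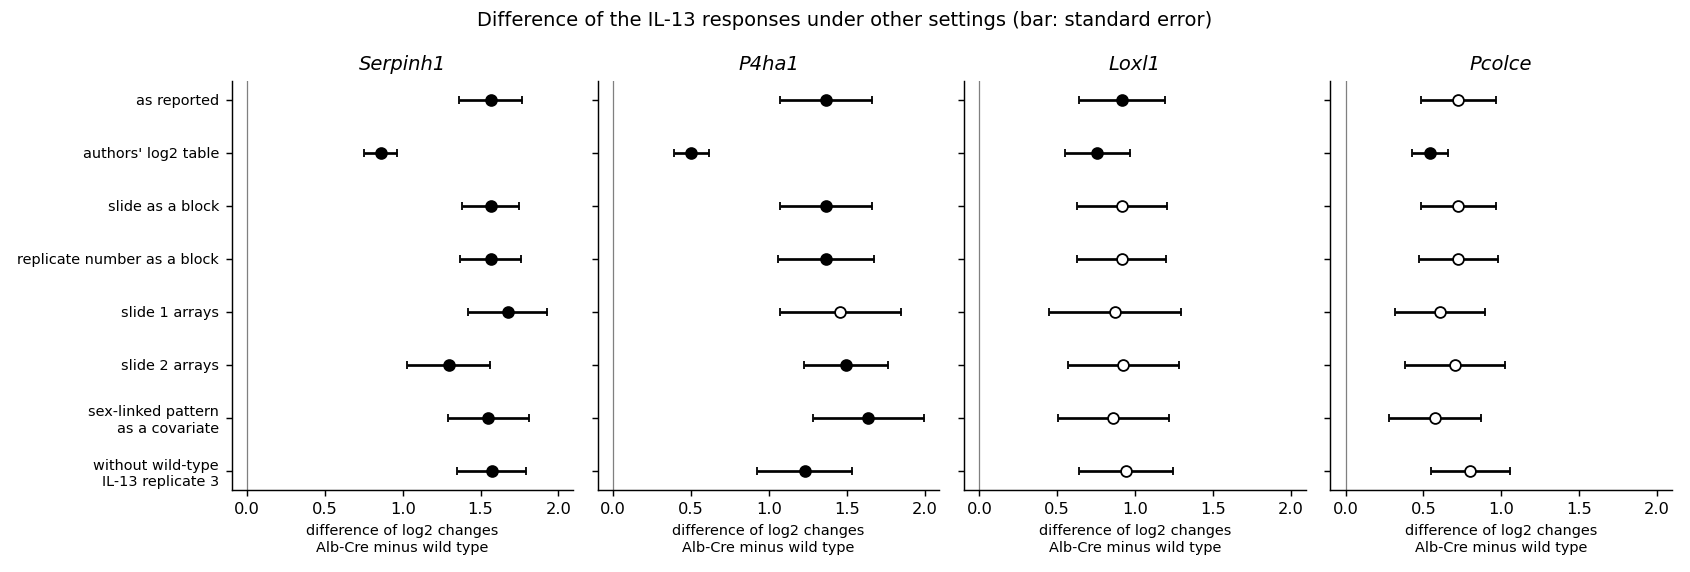
Alb-Cre minus wild-type difference of the IL-13 responses of Serpinh1, P4ha1, Loxl1 and Pcolce under 8 settings; points are log2 differences, bars standard errors, and open points did not pass the adjusted threshold. Every setting shown gave a positive difference, from 0.50 (P4ha1, authors' table) to 1.67 (Serpinh1, slide 1).

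Other genes of collagen modification, a list of 15, mostly rose as well. Of the 10 that passed the filter, 6 rose in Alb-Cre and 9 in wild type, and 0 fell in either. Their median change was 0.56 in Alb-Cre and 0.71 in wild type. With the sex-linked pattern as a covariate 4 rose in Alb-Cre and 8 in wild type, and Crtap was lost in Alb-Cre (adjusted p = 0.0744). Tgm2, the tissue transglutaminase that forms another kind of protein cross-link, rose by 2.04 ± 0.21 in Alb-Cre and 2.91 ± 0.21 in wild type. P3h3 rose by 1.27 ± 0.13 in Alb-Cre and 0.89 ± 0.13 in wild type, and Crtap, a subunit of the prolyl 3-hydroxylation complex, rose by 0.77 ± 0.14 in Alb-Cre and 0.86 ± 0.14 in wild type. P3h4, a partner of lysyl hydroxylase 1, was detected on 0 of the 8 EGFP arrays and passed the filter through IL-13 arrays alone, so its higher level with IL-13 (at least 1.67-fold in Alb-Cre and at least 2.16-fold in wild type) was built into the selection, and it is among the 6 and the 9. No response of the 10 was called different between genotypes with all arrays. Without Alb-Cre IL-13 replicate 2 the Tgm2 difference was -1.22 (adjusted p = 8.64e-04), and without wild-type IL-13 replicate 3 that of P3h4 was -0.52 (adjusted p = 0.0481). Under IL-13 Colgalt2, a collagen galactosyltransferase, was lower in Alb-Cre (-0.48 ± 0.15, adjusted p = 0.0341), as was Tgm2 (-0.76 ± 0.22, adjusted p = 0.0246). The Tgm2 call was lost in the authors' deposited log2 table (adjusted p = 0.0510), with no filter (0.0625), within slide 1 (0.383), with only the groups compared (0.141) and on the arrays with Eif2s3y (0.242). It was lost also without Alb-Cre IL-13 replicate 1 or 3 or wild-type IL-13 replicate 2 or 3 (-0.79 to -0.50, adjusted p = 0.0535 to 0.122). The count of lower genes moved in 7 of 12 settings and was 0 to 2 with 1 array left out. For this list and those below, 9.38% of all kept probes rose and 7.99% fell in Alb-Cre. In wild type 19.2% rose and 18.9% fell. The Alb-Cre response was the higher for 6% and the lower for 5.64%. Under IL-13 9.63% were higher and 9.85% lower in Alb-Cre.

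Most kept substrates of these enzymes rose as well, while most kept genes of propeptide cleavage and secretion did not. Of 12 fibrillar collagen and elastic fibre genes, 7 passed the filter and 6 rose in both genotypes, with a median of 2.04 in Alb-Cre and 1.39 in wild type. Col1a1 rose by 4.72 ± 0.27 in Alb-Cre and 3.98 ± 0.27 in wild type, with no difference called between the responses (0.73 ± 0.38, adjusted p = 0.247). Eln, the elastin substrate of Lox and Loxl1, rose by 1.71 ± 0.14 in Alb-Cre and 0.78 ± 0.14 in wild type, and with all arrays it was the gene of this list whose response differed (0.94 ± 0.20, adjusted p = 0.00615), though not within slide 1 (0.71, adjusted p = 0.197). With 1 array left out 1 to 4 of the 7 differed, Col3a1 among them without wild-type IL-13 replicate 2 (0.96, adjusted p = 0.0426). The fit with the sex-linked covariate gave 3, among them Col1a2 (0.80, adjusted p = 0.0474). Of 14 genes of propeptide cleavage and secretion 6 passed the filter, and 2 rose in both genotypes. These were Pcolce2, the paralogue of Pcolce, by 1.77 ± 0.21 in Alb-Cre and 2.42 ± 0.21 in wild type, and Sparc, a collagen-binding glycoprotein, by 3.03 ± 0.22 in Alb-Cre and 2.27 ± 0.22 in wild type. The Pcolce2 rise in Alb-Cre was 1.31 with the sex-linked pattern as a covariate, and the call was lost (adjusted p = 0.0515). Bmp1, the C-proteinase that Pcolce assists, did not pass (-0.24 ± 0.14 in Alb-Cre and -0.34 ± 0.14 in wild type, adjusted p = 0.302 and 0.0755). In wild type it did in the authors' deposited log2 table (-0.39, adjusted p = 0.0242) and without wild-type IL-13 replicate 3, which equals the covariate fit (-0.48, adjusted p = 0.0162). Mia3, a cargo receptor for procollagen export, had a change of -0.10 ± 0.14 in Alb-Cre (adjusted p = 0.702) and fell by 0.44 in wild type (adjusted p = 0.0189). The fall did not pass in the authors' deposited log2 table (-0.10, adjusted p = 0.118), within slide 2 (-0.32, adjusted p = 0.268), without wild-type IL-13 replicate 1 (-0.39, adjusted p = 0.0678) or without wild-type EGFP replicate 2 (-0.38, adjusted p = 0.0553).

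Serpinh1 is known as a heat shock gene and P4ha1, Plod2 and Lox as targets of the hypoxia-inducible factor HIF, so lists of both kinds were set beside them. Of 8 heat shock genes 7 were kept. In Alb-Cre 2 rose and 0 fell, and in wild type 0 rose and 6 fell. Of all kept probes 17.4% were called in Alb-Cre and 38.1% in wild type. Hspa1a, an inducible HSP70, rose by 1.56 ± 0.34 in Alb-Cre and fell by 1.63 in wild type. In wild type with IL-13 it averaged 4.52 and was detected on 2 of 3 arrays, so the size of the fall is uncertain. With the sex-linked pattern as a covariate the Hspa1a rise in Alb-Cre was 1.80, and the call was lost (adjusted p = 0.104). The next gene is its cochaperone. Dnajb1 had a change of 0.13 ± 0.20 in Alb-Cre (adjusted p = 0.714) and -1.71 ± 0.20 in wild type (adjusted p = 4.46e-06). Hsph1, which encodes an HSP110, had 0.32 ± 0.27 (adjusted p = 0.467) in Alb-Cre and -1.98 ± 0.27 (adjusted p = 2.11e-05) in wild type. Hspb1, a small heat shock protein gene, rose by 0.91 ± 0.24 in Alb-Cre and fell by 0.66 in wild type (adjusted p = 0.0418). The Hspb1 fall was lost in 7 of 11 alternatives (-0.27, adjusted p = 0.183, in the authors' deposited log2 table). It was lost also without wild-type IL-13 replicate 2 or 3 or wild-type EGFP replicate 1 or 2 (-0.72 to -0.45, adjusted p = 0.0572 to 0.213), and its rise without Alb-Cre IL-13 replicate 3 (0.71, adjusted p = 0.0874). The Alb-Cre response was the higher for 5 of the 7, with a median difference of 1.57. In the covariate fit 0 of the 7 rose in Alb-Cre, 4 fell in wild type and 3 had a higher Alb-Cre response. Hspe1, a mitochondrial cochaperonin gene, had a difference of -0.13 ± 0.21 (adjusted p = 0.777).

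Of 14 HIF targets 11 were kept, of which 1 rose and 2 fell in Alb-Cre and 4 rose and 2 fell in wild type. Among all kept probes 9.38% rose and 7.99% fell in Alb-Cre, and 19.2% rose and 18.9% fell in wild type. The glucose transporter gene Slc2a1 rose by 0.61 ± 0.14 in Alb-Cre and 2.06 ± 0.14 in wild type. Its Alb-Cre call was lost within slide 1 (0.69, adjusted p = 0.0523) and within slide 2 (0.44). The HIF prolyl hydroxylase gene Egln3 had a change of 1.01 ± 0.42 in Alb-Cre (adjusted p = 0.121) and 3.31 ± 0.42 in wild type (adjusted p = 1.35e-05). The Alb-Cre value of Egln3 was 0.36 to 1.71 with 1 array left out, and it passed without Alb-Cre IL-13 replicate 1 (1.71, adjusted p = 0.00125) and within slide 2 (1.21, adjusted p = 0.0334). The kinase gene Pdk1 fell by 0.98 in Alb-Cre and by 1.71 in wild type. Its Alb-Cre call was lost in the authors' deposited log2 table (-0.54, adjusted p = 0.0561) and within slide 2 (-0.57). The demethylase gene Kdm3a had a change of 0.02 ± 0.13 in Alb-Cre (adjusted p = 0.924) and 0.85 ± 0.13 in wild type (adjusted p = 5.602e-05). The Alb-Cre response was the lower for 4 of the 11 and the higher for 0. With the sex-linked pattern as a covariate the counts were 1 lower, Slc2a1, and 1 higher, Pdk1, and 0 of the 11 fell in Alb-Cre.

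**Figure D4:**
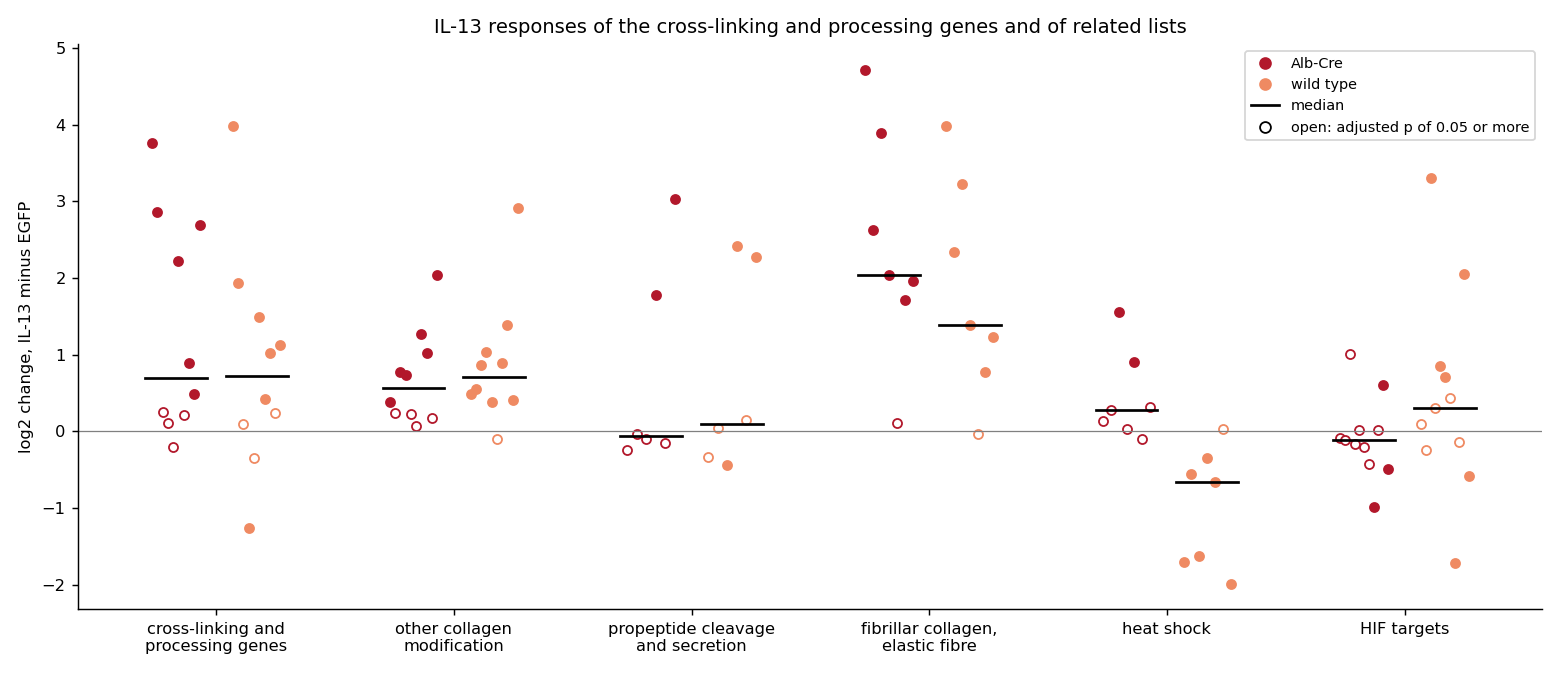
Log2 change with IL-13 over EGFP of each kept gene, in Alb-Cre (left of each pair) and wild type (right), for the 10 genes and 5 related lists; black lines are medians and open points did not pass the adjusted threshold. The heat shock median is 0.28 in Alb-Cre and -0.66 in wild type, while the fibrillar collagen and elastic fibre median is 2.04 and 1.39.

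Markers of liver cell types moved with the plasmid and the genotype, and in bulk tissue more cells of a type and more RNA per cell cannot be told apart. Of 11 kept stellate cell and fibroblast markers 8 rose in Alb-Cre and 8 rose and 1 fell in wild type. Beside these and the next counts, 17.4% of all kept probes were called in Alb-Cre and 38.1% in wild type. Under IL-13 5 of the 11 were lower in Alb-Cre than in wild type and 1, Reln, was higher, and their summed linear level was 6456 to 8948 in Alb-Cre and 8972 to 10990 in wild type, against 4590 to 5491 in Alb-Cre and 4362 to 5208 in wild type with EGFP. The 5 were Dcn, Pdgfra, Des, Cygb and Lum, and bright probes such as that of Dcn weigh most in the sum. Acta2, a marker of activated stellate cells, averaged 8.95 in Alb-Cre and 7.93 in wild type under IL-13, a difference that did not pass (adjusted p = 0.103). Of 9 hepatocyte markers 0 changed in Alb-Cre and 7 fell in wild type, and 4 were higher in Alb-Cre than in wild type under IL-13, among them Alb by 1.10 ± 0.21. Their sum was 58780 to 67230 in Alb-Cre and 46770 to 51850 in wild type under IL-13, against 64420 to 73660 in Alb-Cre and 66900 to 72220 in wild type with EGFP. Neutrophil markers rose in both genotypes (5 of 5 in each). The 8 endothelial markers summed to 1228 to 2278 in Alb-Cre and 1079 to 1517 in wild type under IL-13. With EGFP they summed to 3541 to 4198 in Alb-Cre and 3515 to 3860 in wild type. Of the 8, 1 rose and 1 fell in Alb-Cre, and 1 rose and 2 fell in wild type. The bright Clec4g probe weighs most in this sum. Its mean log2 level was 9.68 in Alb-Cre and 8.99 in wild type with IL-13, and 11.60 and 11.50 with EGFP. The lower sum therefore mainly reflects Clec4g and not the 8 markers as a set. Of 7 macrophage markers 3 rose in Alb-Cre, and 4 rose and 2 fell in wild type, while 2 of 5 eosinophil, 3 of 6 cholangiocyte and 2 of 8 lymphocyte markers were kept and Epx, Krt19 and Cd3e were not. The 2 eosinophil markers, Prg2 and Ccr3, were detected on 0 of the 8 EGFP arrays and support no statement of a change, and Tagln and Mpo also passed through IL-13 arrays alone. In the fit with the sex-linked covariate 6 stellate cell and fibroblast markers rose and 2 hepatocyte markers fell in Alb-Cre, and under IL-13 4 stellate cell and fibroblast markers were lower and 1 hepatocyte marker was higher in Alb-Cre. The part of these markers in the results for the 10 genes was not tested.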

How the data were processed

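Whole-liver RNA of 14 mouse samples was hybridised to Illumina BeadChips. Groups and replicate numbers came from the titles, and the slide from the array names in the descriptions. The deposited table holds a probe intensity per array and a detection p-value beside each, exported with GenomeStudio 2011.1, per the submitters' processing notes. The authors also deposited log2 values; each column equalled the log2 intensity shifted by 1 constant (a factor of 4.53 to 4.86), which set every median alike. Any further step of theirs is unknown here.

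In R 4.3.3, limma 3.58.1 applied neqc, that is normexp background correction from the detection p-values, an offset of 16, quantile normalization and log2. Probes with a detection p under 0.05 on at least 3 arrays were kept (14109 of 25697). The platform table named 23978 probes with 1 gene symbol, 0 with several and 1719 with none, and RefSeq (GRCm38.p6) changed 0 symbols. For the related lists, the brightest kept probe stood for a gene. All 14 arrays entered 1 limma model with a mean for each group, which left 10 residual degrees of freedom; 5 two-sided contrasts were taken from it, with Benjamini-Hochberg adjustment over all kept probes and a threshold of 0.05; rose, fell and differed mean a call at this threshold. The fit was checked on simulated data. The number of arrays limits the precision. The 10 genes and the lists were chosen with earlier results of these data known; the text names all 10, up to 4 genes of each pathway list with the smallest p in the 2 IL-13 contrasts, and Colgalt2, Hspe1 and the cell type markers after their values were seen.

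Alternatives covered background correction, the authors' table, filters, the slide, the replicate number, the sex-linked pattern as a covariate (wild-type IL-13 replicate 3 against replicates 1 and 2 alone sets this term, which therefore cannot be told apart from that array and its slide), 1 probe per gene, the groups in the fit and each array left out. The repeat on arrays with Eif2s3y and the repeats of the list counts were added after seeing the data. Where a group held 1 array (within slide 2, or with Eif2s3y), that array was assumed to vary like the other groups.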

Additional observations from a re-analysis of the deposited data

Results flagged for a closer look

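P4ha1 in Alb-Cre liver with EGFP had 1 array apart from the others, replicate 4 at 5.85 where the other 3 read 5.59. Its gap was 0.983 of the group's range, above the 95% limit for 4 values. This was 1 of 20 groups examined, and chance flags about 1 in 20.

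The response to IL-13 differed between the genotypes for Serpinh1 by 1.56, for P4ha1 by 1.37 and for Loxl1 by 0.91 (log2, Alb-Cre minus wild type, limma interaction contrast, adjusted p = 1.27e-04, 0.00643 and 0.0437). The sex-linked pattern bears on these differences, as described above.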

How the results depend on the processing

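Of 1260 repeated values for 50 results on the 10 genes, 1207 kept their side of the threshold, 50 lost a call and 3 gained one. The sign turned in 44, all of them values not called either way (adjusted p of 0.42 or more), such as Loxl1 under EGFP and the Plod2 difference of responses, and no called value turned. Counts of the 10 genes called, in either direction, moved by over 1.5 times as follows. The count of differing responses was 1 with slide 1 alone, against 3. Alb-Cre against wild type under IL-13 gave 1 with slide 1 alone and 2 with slide 2 alone, with the sex-linked pattern as a covariate or on the arrays with Eif2s3y, against 4. Over all probes, IL-13 against EGFP in Alb-Cre gave 1113 with slide 1, 752 with slide 2 and 1127 with the covariate, against 2451. In wild type slide 2 gave 3221, against 5377. Differing responses numbered 313 with slide 1 and 754 with slide 2, against 1643. Under IL-13 the count was 1196 with slide 1, 1241 with slide 2, 1666 with the covariate, 1614 with only the groups compared in the fit and 555 on the arrays with Eif2s3y, against 2748. Under EGFP slide 2 gave 1, against 0. The repeats by slide, by Eif2s3y and by the groups in the fit hold fewer arrays; for the covariate the cause was not tested.

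With each array left out in turn, 5 to 6 of the 10 genes were called in Alb-Cre, 6 to 7 in wild type, 2 to 3 between the responses and 3 to 4 under IL-13. With the replicate number as a block (replicate block), the counts were 6, 7, 2 and 4, and the call lost was that of the Loxl1 difference (adjusted p = 0.0590). Same-numbered arrays had correlations of deviations from -0.107 to 0.274, over 0.1 in 4 of 19 pairs, so they are not shown to be paired. Plod1 in wild type was also lost without background correction (adjusted p = 0.0509), in the deposited table (0.0715), with no filter (0.0822) and with only the groups compared (0.0754). Without background correction folds shrink: in the deposited table Serpinh1 rose by 1.33 in Alb-Cre and 0.47 in wild type. Probes near background limit the sizes given. Among them were Lox, Serpinh1 and Plod2 with EGFP, Loxl2, and P4ha1 and Hspa1a in wild type with IL-13.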
